A study of Glycine max with 36 samples.

Results

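FKF1 and ZTL belong to a small family of plant proteins that read blue light with a LOV domain and carry an F-box and Kelch repeats, with which they mark other proteins for degradation. In Arabidopsis, FKF1 pairs with GIGANTEA in the afternoon and removes the CDF repressors of the flowering gene CONSTANS, which ties it to the measurement of day length. ZTL in Arabidopsis targets the clock proteins TOC1 and PRR5 in the evening and night and is held stable by GIGANTEA in the light, so that its activity is known for control at the protein level. The 4 soybean genes described here are FKF1 (GLYMA05G34530), FKF2 (GLYMA08G05130) and a ZTL pair, GLYMA15G17480 and GLYMA09G06220. They were taken by identifier and not by any measured value, though with earlier results of these data known. They are 4 of 47011 gene identifiers in the deposited table. All 4 had a mean of at least 1 FPKM, as did 27449 identifiers in all, over which every test across genes was run and adjusted. FPKM is the number of sequenced fragments scaled to the length of the gene and to the mapped fragments of the library.

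The names need a caution. The files give identifiers alone, and the RefSeq table of soybean genes held 59048 genes, of which none could be matched to an identifier (0). That table holds genes called FKF1, ZTL, ZTL1 and ZTL2. Its FKF1 and ZTL lie on the chromosomes that identifiers beginning GLYMA05 and GLYMA15 name by convention. Its ZTL1 and ZTL2 lie on other chromosomes than those named so by GLYMA15 and GLYMA09. The ZTL pair was listed as ZTL1 and ZTL2 for this work, and to avoid a mix-up both genes are called by identifier here. FKF2 has no entry by that symbol. No function was measured, so the family roles are background from Arabidopsis.

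The samples are pools of unifoliolate leaves, the first simple leaves above the cotyledons, of the soybean cultivar Williams 82. Seedlings grew for 9 days at 28 °C and 100 μmol/m2/s in cycles of 16 h light and 8 h dark and were then put in constant conditions on the following day. From an age of 11 days, leaves of 3 seedlings were pooled for each library, every 4 h over 44 h, with 3 biological replicates at each of 12 time points (36 libraries, ZT0 to ZT44, where ZT is zeitgeber time in h). All groups share the cultivar, the tissue and the constant conditions and differ in the time of sampling alone, so that time, age and hours in constant conditions increase together. Fewer cells of a type and less RNA per cell cannot be told apart in such pools, and leaf and other tissue markers could not be checked because no identifier was paired with a name.

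The summed FPKM was 651475 to 749531 per library. Absolute depth is unknown, and relative depth, from 368 genes whose values rest on single reads, was 0.796 to 1.14 times the median library. A single read was worth a median of 0.0421 FPKM in those genes, so that values well under 1 FPKM rest on few reads. The median tested gene itself moved with time, from 2.55 on the log2(FPKM + 1) scale at ZT4 to 3.02 at ZT40, with a fitted 24-h amplitude of 0.24. Results are therefore given on the deposited scale and again relative to the median gene, the latter by dividing each library by its median ratio to the other libraries, which left a range of 0.05. Periods and likeness between courses are given as deposited alone. Across genes, r between replicate libraries ran from 0.947 to 0.9943. Earlier work on these data found 3 libraries of the second 24 h apart from the rest (ZT40 replicate 2, ZT44 replicates 2 and 3), and the amplitudes, the differences between the days and the steps that these libraries decide are also given without them.

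The FKF pair had deep evening rhythms and the ZTL pair shallow ones. FKF1 rose from a mean of 0.306 FPKM at ZT0 to 27.3 at ZT12, 89.2-fold over the first 24 h, and FKF2 from 0.2 to 19.7 FPKM, or 98.7-fold. GLYMA15G17480 changed 2.51-fold, between 11.0 FPKM at ZT4 and 27.7 at ZT12. GLYMA09G06220 changed 1.66-fold, between 10.8 FPKM at ZT8 and 17.9 at ZT16. Both FKF genes thus dropped well below the ZTL pair in the late night. At ZT8 and ZT12 both exceeded GLYMA09G06220 in the means, whereas FKF2 was at 0.972 and 0.714 times the FPKM of GLYMA15G17480.

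**Figure D1:**
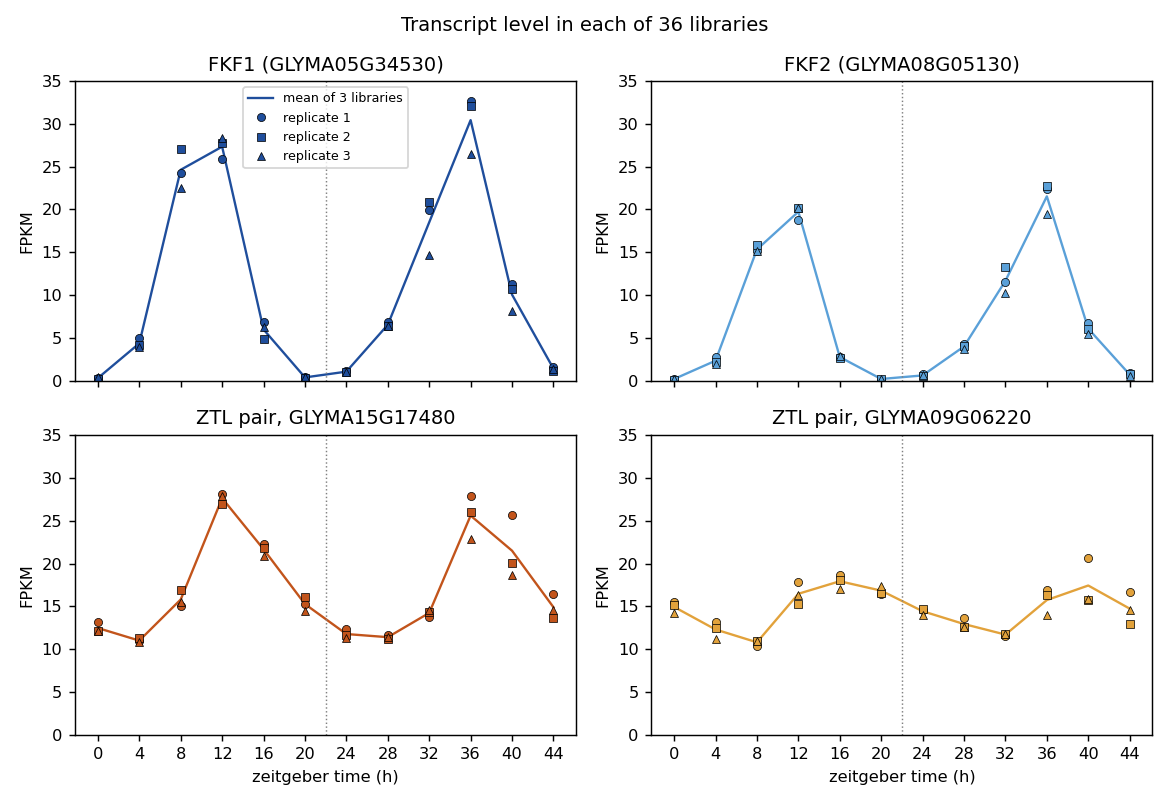
FPKM (vertical axis, same range in all panels) against zeitgeber time in h for each gene, with 1 symbol per library and a line through the means of 3 libraries; the dotted line separates the first and the second 24 h. FKF1 and FKF2 fall to under 1 FPKM at ZT20, whereas the ZTL pair stays above 10 FPKM in every library.

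FKF1 was near its floor at subjective dawn, with 0.285, 0.235 and 0.399 FPKM in the 3 libraries of ZT0. At ZT4 it was at 4.97, 4.20 and 3.92 FPKM, and at ZT8 at 24.3, 27.1 and 22.5. It was at 25.9, 27.8 and 28.3 FPKM at ZT12, which overlaps ZT8. The level then collapsed within 8 h of the evening high: the libraries of ZT16 had 6.89, 4.85 and 6.22 FPKM and those of ZT20 had 0.415, 0.340 and 0.401. On the next day it was at 1.12, 1.03 and 1.03 FPKM at ZT24 and at 6.81, 6.43 and 6.36 at ZT28. Values of 19.9, 20.9 and 14.7 FPKM at ZT32 and 32.7, 32.1 and 26.5 at ZT36 followed. All libraries of ZT24 thus lay above all libraries of ZT0 and ZT20. The decline passed through 11.3, 10.7 and 8.17 FPKM at ZT40 and ended at 1.65, 1.16 and 1.42 at ZT44. In the order of the means, ZT36 (30.4 FPKM) was highest, followed by ZT12, ZT8, ZT32, ZT40, ZT28, ZT16, ZT4, ZT44, ZT24, ZT20 and ZT0. Neighbours in this order whose libraries overlapped were ZT36 with ZT12, ZT12 with ZT8, ZT28 with ZT16, ZT16 with ZT4, and ZT20 with ZT0.

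FKF2, its partner, followed a similar course at a lower level. Its libraries were at 0.233, 0.141 and 0.225 FPKM at ZT0 and at 2.81, 2.22 and 1.98 at ZT4. They were at 15.1, 15.8 and 15.1 FPKM at ZT8 and at 18.8, 20.2 and 20.2 at ZT12, so that for this gene all libraries of ZT12 exceeded those of ZT8. It then fell to 2.79, 2.60 and 2.90 FPKM at ZT16 and to 0.138, 0.222 and 0.246 at ZT20. Levels of 0.734, 0.502 and 0.619 FPKM at ZT24 and 4.27, 4.04 and 3.69 at ZT28 again lay above those of the day before. The libraries of ZT32 had 11.5, 13.3 and 10.2 FPKM and those of ZT36 had 22.4, 22.7 and 19.5. FKF2 then declined through 6.75, 6.06 and 5.44 FPKM at ZT40 to 0.860, 0.771 and 0.521 at ZT44. The order of the 12 means was that of FKF1, and the libraries of neighbours overlapped for ZT36 with ZT12, ZT16 with ZT4, ZT44 with ZT24, and ZT20 with ZT0.

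GLYMA15G17480 peaked in the evening on a high base. It was at 13.2, 12.1 and 12.1 FPKM at ZT0, at 10.9, 11.3 and 10.8 at ZT4 and at 15.0, 16.9 and 15.5 at ZT8. The libraries of ZT12 stood clear above these with 28.1, 26.9 and 27.9 FPKM. They were followed by 22.3, 21.8 and 20.9 FPKM at ZT16 and 15.3, 16.1 and 14.4 at ZT20. The course repeated on the next day, with 12.4, 11.6 and 11.3 FPKM at ZT24, 11.6, 11.2 and 11.4 at ZT28 and 13.8, 14.3 and 14.6 at ZT32. The evening values were 27.9, 26.0 and 22.9 FPKM at ZT36, and 25.7, 20.1 and 18.7 at ZT40, where replicate 1 stood above the others. At ZT44 the values were 16.5, 13.6 and 14.6 FPKM. The means of ZT12 and ZT36 were highest, followed by those of ZT16 and ZT40, and the libraries of ZT36 and ZT40 overlapped through replicate 1 of ZT40. All libraries of these 4 time points lay above those of the rest, of which ZT8, ZT20, ZT44 and ZT32 overlapped in turn and lay above ZT0, ZT24, ZT28 and ZT4.

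GLYMA09G06220 was lowest around midday, when the FKF pair was high but below its highest means as deposited. FKF1 and FKF2 were at 24.7 and 15.3 FPKM at ZT8, against 27.3 and 19.7 at ZT12. They were at 18.5 and 11.7 FPKM at ZT32, against 30.4 and 21.5 at ZT36. The libraries of GLYMA09G06220 had 15.5, 15.1 and 14.2 FPKM at ZT0 and 13.2, 12.5 and 11.2 at ZT4. The lowest values followed at ZT8, with 10.4, 11.0 and 11.0 FPKM. By the evening it had risen to 17.8, 15.3 and 16.3 FPKM at ZT12, 18.7, 18.1 and 17.0 at ZT16 and 16.5, 16.6 and 17.4 at ZT20. On the next day it was at 14.6, 14.7 and 14.0 FPKM at ZT24, 13.6, 12.6 and 12.6 at ZT28 and 11.5, 11.8 and 11.8 at ZT32, again the lowest time of that day. The last 3 time points had 16.9, 16.3 and 14.0 FPKM at ZT36, 20.6, 15.8 and 15.9 at ZT40, and 16.7, 12.9 and 14.6 at ZT44. Replicate 1 of ZT40 was again the highest of its time point, as for GLYMA15G17480. In the order of the means from ZT16, ZT40, ZT20, ZT12, ZT36, ZT0, ZT44 to ZT24 each time point overlapped the next, and ZT8 alone was separated from all others.

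A fitted 24-h curve set the 4 genes apart by depth and by peak time. The amplitude, which is the height of the curve's peak over its midline in log2(FPKM + 1), was 2.26 ± 0.06 (SE) for FKF1 and 2.11 ± 0.06 for FKF2, with peaks at ZT10.4 for both. It was 0.57 ± 0.04 for GLYMA15G17480 with a peak at ZT13.8, and 0.26 ± 0.03 for GLYMA09G06220 with a peak at ZT17.4. The rhythm test passed for all 4, with adjusted p-values of 8.32e-26, 5.71e-25, 4.25e-16 and 1.97e-08 in that order (limma's moderated F-test, Benjamini-Hochberg adjustment). As 94.4% of all tested genes passed it too, the call itself says little. The same holds for the test of any change over the 12 time points, which all 4 genes and 95.1% of all genes passed (87.9% relative to the median gene). Of the 4 genes, 3 had a peak at least 2-fold above the trough, against 29.7% of all genes, and the FKF pair, 23-fold and 18.7-fold in the fit, had at least 8-fold, against 1.83%. FKF1 ranked 110 and FKF2 149 in amplitude among the 27449 genes, GLYMA15G17480 ranked 6385 and GLYMA09G06220 19207. The FKF amplitudes depend on the pseudocount of 1, which damps values under 1 FPKM. With 0.01 in its place they were 3.04 and 3.18, and FKF2 had the larger one. Without the 3 libraries named above the amplitudes were 2.27, 2.11, 0.57 and 0.305 in the same order, and all passed.

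**Figure D2:**
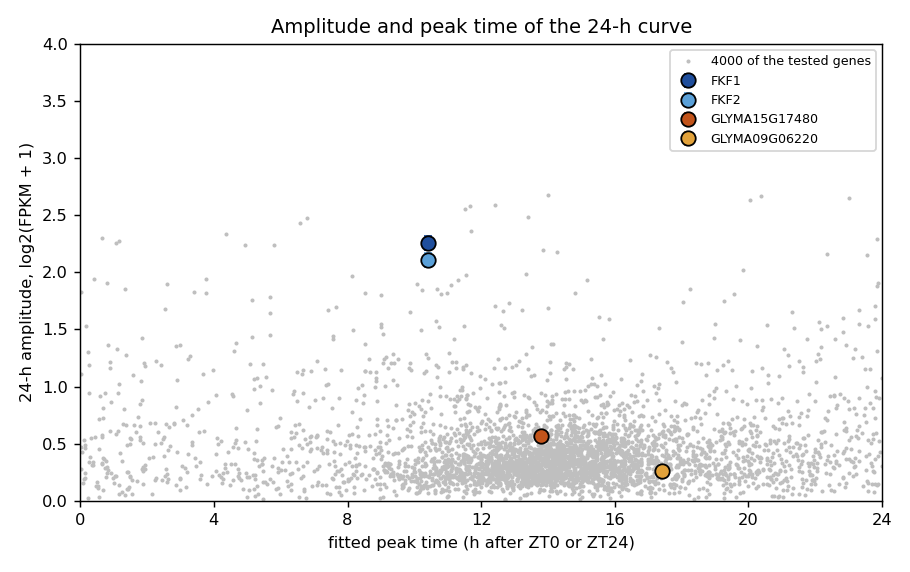
Fitted 24-h amplitude (vertical axis, log2 scale) against fitted peak time in h, for the 4 genes (large symbols, bars are SE and mostly smaller than the symbol) and for 4000 of the 27449 tested genes (grey). FKF1 and FKF2 lie at 2.26 and 2.11 above most of the grey points, and the ZTL pair lies among them at 0.57 and 0.26.

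The single 24-h curve held 98.0% of the variance left between the time point means of FKF1 once the mean of each day was removed. It held 97.4% for FKF2, 92.3% for GLYMA15G17480 and 78.3% for GLYMA09G06220. The best-fitting period was 24.4 h for FKF1, with an SD of 0.17 h when each of the 3 replicate numbers was fitted on its own, and 24.3 h (SD 0.25) for FKF2. It was 23.6 h (SD 0.12) for GLYMA15G17480 and 22.5 h (SD 1.31) for GLYMA09G06220, for which the courses ranged from 21.2 to 23.8 h. Peak times had an SD over courses of 0.08 h for FKF1, 0.05 h for FKF2, 0.39 h for GLYMA15G17480 and 0.14 h for GLYMA09G06220. With sampling every 4 h over less than 2 full cycles, these periods are descriptions without a test. Each course joins pools of different seedlings by replicate number, so the SDs describe the spread between libraries and not between plants followed over time.

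Relative to the median gene the fitted peak times of the FKF pair moved less than those of the ZTL pair. All genes of a library were divided by the same factor, which weighs more on a shallow rhythm than on a deep one. The amplitudes were 2.17 ± 0.06 (SE) for FKF1 and 2.03 ± 0.06 for FKF2, with peaks at ZT10.1 and ZT10.0, and both kept at least 8-fold against 1.96% of genes. The highest mean of FKF1 in the first 24 h moved from ZT12 to ZT8 (26.1 against 22.8 FPKM after rescaling), and the lowest mean of FKF2 from ZT0 to ZT20. GLYMA15G17480 had an amplitude of 0.30 ± 0.04 and a peak at ZT13.3 (adjusted p = 1.25e-08), and with 1.51-fold it no longer reached 2-fold, against 22.4% of genes that did. GLYMA09G06220 had an amplitude of 0.21 ± 0.03 (adjusted p = 1.97e-06) and a peak at ZT22.1 in place of ZT17.4. Its highest mean moved from ZT16 to ZT0 (17.9 FPKM after rescaling), whereas ZT8 stayed its lowest time point (11.4 FPKM). The share of all genes with a called rhythm was 86.3% on this scale.

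**Figure D3:**
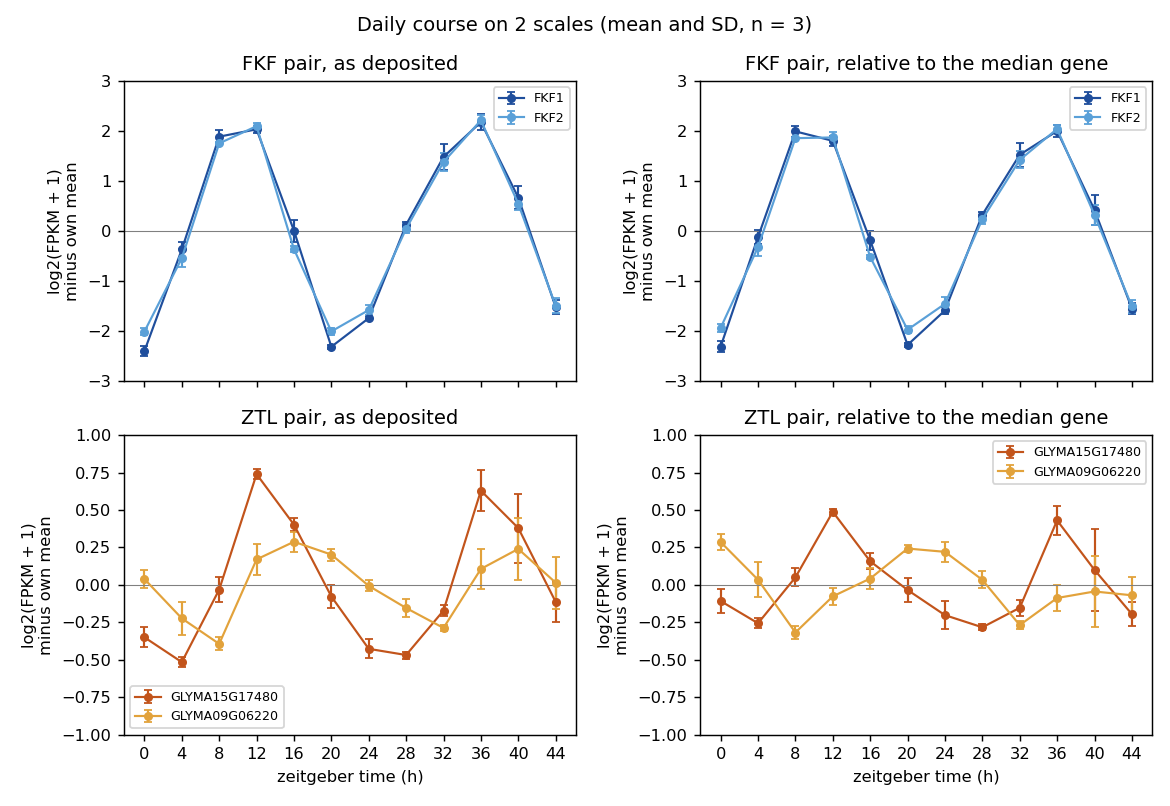
log2(FPKM + 1) minus the mean of the gene over the 36 libraries (vertical axis) against zeitgeber time in h, as deposited (left) and relative to the median gene (right), for the FKF pair (upper, range -3 to 3) and the ZTL pair (lower, range -1 to 1); points are means and bars SDs of 3 libraries. The FKF curves look alike on both scales, and the curve of GLYMA09G06220 turns from an evening high to a high around ZT0 and ZT24 while its low at ZT8 and ZT32 remains.

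Evening and dawn, 12 h apart, were compared on each day. ZT12 exceeded ZT0 by 4.44 ± 0.12 (SE, in log2(FPKM + 1)) for FKF1, 4.11 ± 0.10 for FKF2 and 1.09 ± 0.09 for GLYMA15G17480. All 3 passed (adjusted p = 5.23e-23, 2.94e-24 and 3.3e-12, limma), where 62.2% of all genes were called higher. ZT36 exceeded ZT24 by 3.92, 3.8 and 1.05 for the same 3 genes (57.7% of all genes higher). Relative to the median gene these 3 remained higher in the evening, with 4.12, 3.81 and 0.59 on the first day, against 27% of all genes, and 3.59, 3.5 and 0.63 on the next day, against 23.5%. The pseudocount of 1 damps the differences of the FKF pair, whose dawn values are low. With 0.01 they were 6.47 for FKF1 and 6.59 for FKF2 on the first day. On the next day they were 4.82 and 5.11, so that FKF2 had the larger one on both days. GLYMA09G06220 had differences of 0.13 ± 0.09 and 0.11 ± 0.09 as deposited, which did not pass (adjusted p = 0.185 and 0.252). Of all genes, 62.2% and 57.7% were called higher and 13.7% and 13.4% lower in these comparisons. After rescaling to the median gene its evening level was lower, with differences of -0.37 ± 0.08 and -0.31 ± 0.08 (adjusted p = 0.000474 and 0.00283), where 27.7% and 25.9% of all genes were called lower. The direction for this gene therefore rests on the scaling.

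Step by step, the FKF pair changed almost without pause. For FKF2 all 11 steps between consecutive time points passed the limma test on log2(FPKM + 1), 7 as rises and 4 as falls. For FKF1 10 did, the exception being ZT8 to ZT12 (0.14 ± 0.12, SE, adjusted p = 0.306). Of all genes, 13.9% rose into ZT4, 28.2% into ZT8, 49% into ZT12, 15% into ZT28, 20.1% into ZT32 and 32.4% into ZT36, and 10.4% fell into ZT16, 46.8% into ZT20, 7.67% into ZT40 and 32.1% into ZT44. Relative to the median gene the step from ZT8 to ZT12 did not pass for FKF2 either (adjusted p = 0.944). The last step before subjective dawn, ZT20 to ZT24, was a rise of 0.57 ± 0.12 for FKF1 and 0.43 ± 0.10 for FKF2 (adjusted p = 0.00102 and 0.00201), a step at which 4.21% of all genes rose and 20.4% fell. It was 0.69 and 0.52 relative to the median gene, where 8.12% of genes rose. In FPKM as deposited the means went from 0.385 to 1.06 for FKF1 and from 0.202 to 0.619 for FKF2. The pseudocount of 1 damps steps from such low values, so their log2 size and order depend on it. Over the same step GLYMA15G17480 fell by 0.35 ± 0.09 as deposited (adjusted p = 0.00353) and gave -0.17 relative to the median gene, which did not pass (adjusted p = 0.225).

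For the ZTL pair fewer steps passed. GLYMA15G17480 had 4 rises and 5 falls, with its largest rises at the step into evening, 0.77 from ZT8 to ZT12 and 0.80 from ZT32 to ZT36. They were smaller after rescaling to the median gene, 0.44 and 0.58, and still passed (adjusted p = 0.00022 and 5.5e-06), beside 14.4% and 13.7% of genes that rose. On that scale this gene had 3 rises and 3 falls, where the steps that no longer passed were ZT16 to ZT20 (adjusted p = 0.0844), ZT20 to ZT24 and ZT28 to ZT32 (adjusted p = 0.349). Of all genes 14.9% rose into ZT8 there, and 10.4% fell into ZT16, 10.4% into ZT40 and 11.9% into ZT44. Without the 3 libraries named above its fall from ZT36 to ZT40 did not pass as deposited (-0.21, adjusted p = 0.0863). GLYMA09G06220 had 2 rises, at the same steps into evening (0.56 and 0.39), and 2 falls, ZT0 to ZT4 (-0.26, adjusted p = 0.0219) and ZT40 to ZT44 (-0.22, adjusted p = 0.0451), where 18.7% and 32.1% of all genes fell. The fall from ZT40 to ZT44 was not called relative to the median gene (-0.03, adjusted p = 0.853), nor as deposited without those 3 libraries (-0.11, adjusted p = 0.538). On that scale its falls were ZT0 to ZT4 (-0.25), ZT4 to ZT8 (-0.35) and ZT28 to ZT32 (-0.30), with adjusted p-values of 0.0176, 0.00196 and 0.00962, beside 19.2%, 14.8% and 11.1% of genes that fell. Its rise from ZT8 to ZT12 passed there too (0.24, adjusted p = 0.0296), and that from ZT32 to ZT36 did not (0.18, adjusted p = 0.11).

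The genes were then compared within libraries, as log2 ratios of FPKM + 1, which depend little on how libraries are scaled. The ratio of the FKF pair to the ZTL pair cycled with an amplitude of 2.07 and a peak at ZT9.77, which held 97.7% of the variance left after the day term (permutation p = 1e-05, the smallest that 100000 resamples can give). The mean amplitude of the FKF pair exceeded that of the ZTL pair by 1.71, 1.88 and 1.73 when each of the 3 replicate numbers was fitted on its own. As these courses join different pools by number, the values are a description of the spread between libraries. All 4 ratios of an FKF to a ZTL gene had an adjusted permutation p of 1.2e-05 over the 6 gene pairs, with amplitudes from 1.81 to 2.34. FKF1 was above GLYMA15G17480 in 11 of 36 libraries and above GLYMA09G06220 in 12, whereas FKF2 was above GLYMA15G17480 in 1 and above GLYMA09G06220 in 11. At ZT8 FKF1 stood at 1.56 ± 0.0949 times the FPKM of GLYMA15G17480 and 2.28 ± 0.216 times that of GLYMA09G06220, and at ZT20 at 0.0253 ± 0.00367 and 0.0229 ± 0.00237 times (SD, n = 3). With a pseudocount of 0.01 or none the amplitude of the pair ratio was 2.99 and 3.01.

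Within the ZTL pair the balance changed with the time of day. GLYMA15G17480 had 0.852, 0.797 and 0.849 times the FPKM of GLYMA09G06220 in the libraries of ZT0 and 1.58, 1.76 and 1.71 times at ZT12. On the next day the ratio went from 0.848, 0.791 and 0.807 at ZT24 to 1.65, 1.60 and 1.63 at ZT36. The groups did not overlap on either day, and GLYMA15G17480 was the higher of the pair in 19 of 36 libraries. The log2 ratio had an amplitude of 0.46 and a peak at ZT11.97, holding 91.1% of the variance left after the day term (adjusted permutation p = 1.2e-05 over 6 gene pairs). GLYMA15G17480 was thus the higher of the pair around the evening and the lower around dawn. How reads that match both genes were treated is not given in the sources used here, so the split between them is uncertain.

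Within the FKF pair FKF1 was the higher gene in 36 of 36 libraries, by 1.69-fold in the mean of the log2 ratios with no pseudocount. The time point means of the ratio were lowest at the evening high, with libraries at 1.38, 1.38 and 1.40 at ZT12 and 1.46, 1.41 and 1.36 at ZT36. It was 2.47, 1.86 and 2.14 at ZT16, and at ZT20 it ran from 1.53 to 3.00, where both genes were under 0.5 FPKM. A 24-h change of this ratio was not settled. With the pseudocount of 1 it had an amplitude of 0.15 and a peak at ZT10.75 (adjusted permutation p = 0.0138), which became 0.10 and did not pass without ZT0 (adjusted p = 0.163), and did not pass without ZT20 (amplitude 0.12, adjusted p = 0.063) or without replicate number 1 or 2 (0.14 for both, adjusted p = 0.0909 and 0.124). With pseudocounts of 0.1 and 0.01 the amplitudes were 0.08 and 0.15, with peaks at ZT19.82 and ZT20.80. Neither passed (adjusted permutation p = 0.436 and 0.061). With no pseudocount, a run added after seeing the data, the amplitude was 0.16 but the peak moved to ZT20.87 (adjusted p = 0.0419). The peak at ZT10.75 thus lay close to the time at which the FPKM ratio itself was lowest. Adding 1 draws the ratio towards 1 where both genes are under 1 FPKM. How the authors treated reads that match both copies is not given in the sources used here, so the split between them is uncertain.

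**Figure D4:**
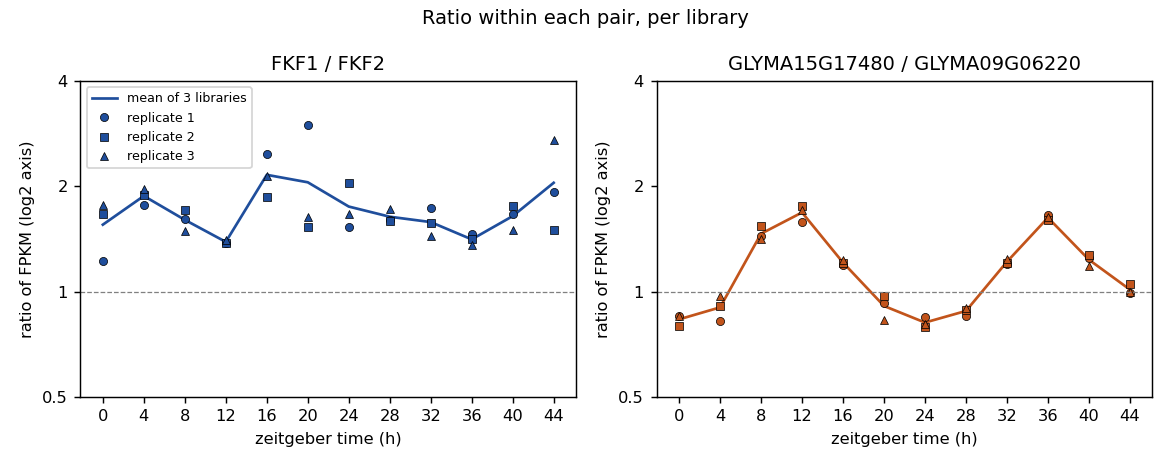
Ratio of FPKM between the genes of each pair (vertical axis, log2 spacing) against zeitgeber time in h, with 1 symbol per library and a line through the means of 3 libraries; the dashed line marks equal levels. The FKF1 to FKF2 ratio stays above 1 in every library, and the ratio of the ZTL pair crosses 1 between ZT4 and ZT8, going from 0.833 at ZT0 to 1.68 at ZT12.

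The days differed for the FKF pair. Averaged over the 6 times of day, the second 24 h was higher than the first by 0.39 ± 0.08 (log2, SE) for FKF1 and 0.36 ± 0.08 for FKF2 (adjusted p = 0.000271 for both, limma), where 29.8% of all genes were called higher. The differences relative to the median gene were 0.37 and 0.35, against 24% of genes higher. The size depends on the pseudocount, since with 0.01 the differences were 0.780 and 0.837. Without the 3 libraries named above they were 0.35 and 0.34 and passed. The rise lay in the trough and on the flanks. FKF1 was 3.46-fold higher at ZT24 than at ZT0, 1.5-fold at ZT28 than at ZT4, 1.68-fold at ZT40 than at ZT16 and 3.65-fold at ZT44 than at ZT20. FKF2 was 3.1-fold, 1.71-fold, 2.2-fold and 3.55-fold higher at the same times. In all of these comparisons the 3 libraries of one day lay above the 3 of the other, also for the libraries of ZT40 and ZT44 that remain without the 3 named above. At ZT32 both genes were lower than at ZT8, at 0.75 and 0.761 times, again with no overlap, and at ZT36 against ZT12 the libraries overlapped for both (1.11 and 1.09 times).

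**Figure D5:**
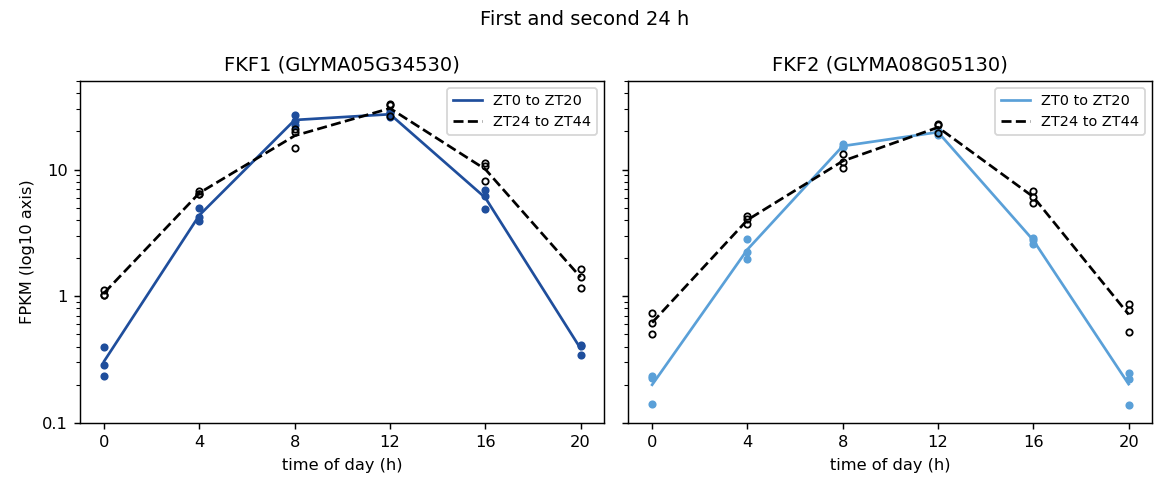
FPKM (vertical axis, log10 spacing) of FKF1 and FKF2 against time of day in h, for the first 24 h (ZT0 to ZT20, solid line, filled symbols) and the second 24 h (ZT24 to ZT44, dashed line, open symbols); lines join means of 3 libraries. The second 24 h lies higher at 0, 4, 16 and 20 h, lower at 8 h, and overlaps at 12 h.

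The rhythm of the FKF pair was accordingly shallower in the second 24 h. FKF1 went from an amplitude of 2.5 on the first day to 2.03 on the second, and its peak came 0.38 h later. The interaction of the curve with the day passed limma's F-test at an adjusted p of 0.00077. FKF2 went from 2.28 to 1.95, its peak came 0.43 h later, and its adjusted p was 0.0299 by that test. Of all genes 15.4% passed this test, 11.4% with the smaller and 3.91% with the larger amplitude in the second 24 h. Relative to the median gene FKF1 and FKF2 passed as well (adjusted p = 0.000778 and 0.0202), beside 14.9% of genes, 10.7% with the smaller and 4.19% with the larger amplitude. The pseudocount of 1 also damps this change, which was -0.47 for FKF1 and -0.32 for FKF2 in amplitude. With 0.01 it was -1.10 and -1.03 (adjusted p = 0.000436 and 0.00032). The result for FKF1 passed with any library, replicate number or time point left out. For FKF2 it did not pass without ZT8, ZT12, ZT24 or ZT32, without any 1 of the 3 libraries of ZT32, or without any replicate number (adjusted p = 0.089 to 0.24), and its amplitude difference of -0.32 became -0.16 without ZT32 and -0.17 without ZT12. Without the 3 libraries named above the differences were -0.53 and -0.38 and both passed.

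For the ZTL pair no difference between the days in mean level or in rhythm was called as deposited. The second 24 h differed from the first by -0.06 ± 0.03 (log2, SE) for GLYMA15G17480 and by -0.03 ± 0.04 for GLYMA09G06220 (adjusted p = 0.176 and 0.576). For GLYMA15G17480 a fall was called relative to the median gene (-0.10 ± 0.04, adjusted p = 0.0193), where 24.4% of genes were called lower, and as deposited without ZT40 replicate 1 (-0.08, adjusted p = 0.0384) or without replicate number 1 (-0.10, adjusted p = 0.0409). Without the 3 libraries named above the differences were -0.04 and 0.01, and neither passed (adjusted p = 0.359 and 0.769). The interaction of day with the curve did not pass for either (adjusted p = 0.902 and 0.356), with amplitudes of 0.58 and 0.55 for GLYMA15G17480 and of 0.32 and 0.21 for GLYMA09G06220. At ZT32 against ZT8 the deposited libraries did not overlap, with GLYMA15G17480 lower (0.901 times) and GLYMA09G06220 higher (1.08 times). Those of GLYMA09G06220 did overlap there relative to the median gene. At the other times of day the deposited libraries of the days overlapped for both genes. The difference between the families was tested directly. The ratio of the FKF pair to the ZTL pair was 0.42 higher (log2) in the second 24 h, by permutation of the day within each time of day (p = 7e-05). It was 0.853 with a pseudocount of 0.01 and 0.868 with none, and 0.403 without the 3 libraries named above (permutation p = 0.00043).

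The courses of the 2 FKF genes were close to each other among all tested genes. Over the 12 time point means of log2(FPKM + 1) as deposited, r between FKF1 and FKF2 was 0.994. FKF2 ranked 3 of 27448 genes by likeness to FKF1, and FKF1 ranked 5 by likeness to FKF2. The unknown treatment of reads that match both copies limits this r as well. The genes of the ZTL pair had an r of 0.586 with each other, and GLYMA09G06220 ranked 14981 by likeness to GLYMA15G17480, which ranked 8596 by likeness to GLYMA09G06220. Across the families, r was 0.601 and 0.614 for GLYMA15G17480 with FKF1 and FKF2 and -0.229 and -0.221 for GLYMA09G06220. These values describe shape over 12 points that share their libraries and carry no test. Every r, rank and nearest gene here is on the deposited scale, where the median gene itself had a fitted amplitude of 0.24, peaking at ZT14.2. None was computed relative to the median gene, where the peak of GLYMA09G06220 was at ZT22.1, so the part of the scaling in them was not tested. As deposited, 465, 353, 437 and 35 genes had an r of at least 0.95 with FKF1, FKF2, GLYMA15G17480 and GLYMA09G06220. The 2 genes outside the 4 most like FKF1 were GLYMA08G27960 (r = 0.9952, means from 0.164 FPKM at ZT0 to 3.69 at ZT36) and GLYMA15G10490 (r = 0.9942, 3.55 to 46.5 FPKM). Those most like FKF2 were GLYMA05G35170 (r = 0.995) and GLYMA09G07650 (r = 0.9945), both also lowest at ZT0 and highest at ZT36. GLYMA06G00220 (r = 0.9927) and GLYMA16G29900 (r = 0.9896) were most like GLYMA15G17480, with their lowest means at ZT4. GLYMA11G06121 (r = 0.9866) and GLYMA13G41130 (r = 0.9833) were most like GLYMA09G06220, with their lowest means at ZT8. The files give no names for these identifiers.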

How the data were processed

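The authors deposited 1 table of FPKM values, per its file name, with 47011 gene identifiers and 36 columns, each carrying a sample's title. Per the submitters' processing notes, which give no role or order, TopHat2 2.1.0 and HTSeq 0.6.0 were among the tools. Genome build, annotation and FPKM tool were not given in the sources used here. FPKM were tested as log2(FPKM + 1), not with a count model, in genes averaging 1 FPKM or more (27449). All 36 libraries entered limma 3.58.1 (R 4.3.3), whose prior variance followed a trend with expression, and p-values were adjusted over every tested gene by the Benjamini-Hochberg method at 0.05. The rhythm was a cosine and a sine of 24 h with a day term; the SE of an amplitude is the mean SE of both terms. The day was tested beside a factor for time of day, and the change in rhythm as an interaction. Ratios between the 4 genes used permutation tests with 100000 resamples (Python 3.11.15, numpy 2.4.6), adjusted over 6 gene pairs. Periods were taken from a grid of 18 to 32 h in steps of 0.1 h. The fits were tested on simulated data. Replicates are pools of different seedlings. Replicate numbers were not treated as pairs.

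Genes beyond the 4 were named by a rule: the 2 with the highest Pearson r over the 12 time point means, as deposited, with each of the 4. The 4 genes, the lists and the tests were chosen with earlier results of these data known. Lists of clock, photoperiod and tissue marker genes could not be resolved to identifiers and were not tested. Alternatives were other pseudocounts, filters and scalings, a replicate block, and libraries, replicate numbers or time points left out. No sequence is shown.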

Additional observations from a re-analysis of the deposited data

Results flagged for a closer look

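The rhythm of 2 genes differed between the first and the second 24 h by the interaction test, which is why they are listed here. FKF1 had an adjusted p of 0.00077 and FKF2 of 0.0299 (limma), both with the smaller amplitude in the second 24 h, and the call on FKF2 was lost without any replicate number. Age, hours in constant conditions and day increased together and cannot be told apart.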

How the results depend on the processing

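The 24-h amplitudes of the 4 genes passed the test under every alternative run, but the peak of GLYMA09G06220 moved from ZT17.40 to ZT22.07 with median-ratio rescaling and ZT21.51 with quantile normalization. Its evening differences reversed with rescaling (ZT12 minus ZT0 -0.365, ZT36 minus ZT24 -0.308), with rescaling and a pseudocount of 0.01 (-0.388 and -0.329, chosen after seeing the data) and with quantile normalization (-0.271 and -0.236). Its difference between the days, -0.028, turned to 0.013 without the 3 libraries found apart and 0.004 without ZT20 or ZT44, and stayed between -0.055 and -0.011 without a replicate number or library. The level difference of GLYMA15G17480 between the days, -0.057, passed with rescaling (-0.100, and -0.106 with pseudocount 0.01) and quantile normalization (-0.108), and without replicate number 1 or ZT40 replicate 1, and ran from -0.100 to -0.029 without a replicate number or library. Its amplitude difference of -0.031, not called, became 0.000 with rescaling (0.001 with pseudocount 0.01), 0.079 without ZT12, 0.021 without ZT24, 0.003 without ZT4 and 0.004 without ZT40, with a range of -0.072 to 0.014 without a replicate number or library. For FKF2 the amplitude difference between the days, -0.322, did not pass without ZT8 (-0.308), ZT12 (-0.175), ZT24 (-0.282) or ZT32 (-0.156), and ran from -0.357 to -0.271 without a library or replicate number. The amplitude of the FKF1 to FKF2 ratio, 0.151, had an opposite peak with pseudocount 0.1 (0.076), 0.01 (0.150) or none (0.161, added after seeing the data). It did not pass with pseudocount 0.1 or 0.01, nor without ZT0 (0.097), ZT20 (0.120) or replicate number 1 or 2. It ran from 0.133 to 0.184 without a library or replicate number. The difference of this ratio between the days, 0.027, was -0.014, -0.057 and -0.064 with these pseudocounts, -0.014 without ZT0 or ZT24 and -0.024 without ZT20 or ZT44. That of the ZTL pair, -0.030 and not called, was -0.065 without ZT20 or ZT44, where it passed (adjusted permutation p = 0.0274 for both). It was 0.014 without ZT8 or ZT32 and did not pass. Smaller pseudocounts enlarged the differences of the FKF pair between the days: with 0.1 they were 0.700 and 0.714 in level and -0.969 and -0.833 in amplitude. The causes were not tested. Counts over all genes moved with the mean of at least 5 FPKM, which leaves fewer genes to test: 15015 had a rhythm, 15152 changed over time, and 5301 were higher and 2830 lower in the second 24 h. The count of genes whose rhythm differed between the days was 4214, but 515 to 1456 without a replicate number and up to 4992 without a library. It ran from 2625 (without ZT44) to 6249 when a time point was left out. The replicate block left the amplitudes at 2.262, 2.112, 0.565 and 0.263 and changed no call on the 4 genes or their ratios. The deviations of same-numbered libraries had a mean r of 0.0114 over 198 pairs (range -0.32 to 0.603). For libraries with different numbers it was -0.00615 over 396 pairs (range -0.679 to 0.515). Such means cannot exclude a link between some of the same-numbered libraries. Depth limits the FKF troughs, which rest on few reads.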
